A study of Mus musculus with 6 samples.

Results

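The gene desert between Tbc1d5 and Satb1 (mouse chromosome 17) was read more often from the Satb1 bait in ES cells than in DP thymocytes. The same distances on the other side of the bait were read more often in DP thymocytes. The distal thymocyte enhancer cluster lies on that side and takes up only a part of these distances. Of the reads that fell in these 2 mirror regions together, the desert held 19.9% in DP (95% exact binomial interval 19.8 to 19.99) and 55.7% in ES (55.6 to 55.9). In 10 kb steps, ES exceeded DP in 51 of the 53 steps of the desert, against 150 of all 262 steps compared within 1.5 Mb (57.3%). There is 1 library per cell type, so no difference below has a test or a replicate error, and each compares those libraries. The intervals cover counting error only, of reads here and of fragments for detection below. Reads were not corrected for PCR duplicates, so the read intervals do not cover the counting error of ligations.

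The desert is chr17:51320000-51849999 (mm9), a stretch of 530 kb that holds no gene in the GENCODE vM1 annotation. Its members are all DpnII restriction fragments whose midpoint lies there. They number 1288, out of 7547 fragments within 1.5 Mb of the bait and 229546 on the chromosome. The near edge lies 112 kb from the bait and the far edge 642 kb. Tbc1d5, which encodes a GTPase-activating protein for Rab proteins of the endosome, occupies 50872452 to 51318674 on the minus strand, so that its start lies 1.33 kb beyond the far edge. Satb1 (51875512 to 51972615, also on the minus strand) ends 25.5 kb beyond the near edge. The desert is therefore downstream of Satb1, and the bait, which the study places at the Satb1 promoter, is at 51962000, inside the annotated span of the gene. The mirror region on the enhancer side, chr17:52074001-52604000, holds 1377 fragments at the same distances and 1 annotated gene, the microRNA gene AC121600.1 (52544362 to 52544442, plus strand).

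4C-seq counts ligations between a chosen bait and the rest of the genome. Chromatin is cross-linked, cut with DpnII at GATC and ligated, so that DNA held near the bait is joined to it, and the joined fragments are then cut with Csp6I at GTAC, circularized and amplified from the bait. Contacts fall with distance from a bait on both sides, whatever the sequence, which is why the mirror distances are the reference here. SATB1 is a chromatin-organizing protein of developing T cells. The study took Satb1 as a gene highly expressed in CD4+/CD8+ double-positive (DP) thymocytes and silent in ES cells.

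The study holds 6 libraries from 3 baits, of which both Satb1 libraries are used here. The DP library came from CD4+/CD8+ cells sorted from the thymus of mice of strain c57/Bl6 at 4 weeks of age, and the number of mice is not given. The ES library came from J1 cells, a line of strain 129S4/SvJae grown on feeder cells and then passaged without them. Both were fixed in 2% formaldehyde for 10 min and cut with the same enzymes. The labels give 0.4% SDS for both, while the Methods give 0.7% for DP cells. Cell type, strain, any difference in SDS treatment and library cannot be told apart, and reads were mapped to mm9, the C57BL/6 genome. 4C of genomic DNA shows no expression, so the cell types could not be checked against marker genes.

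On chromosome 17, the only one in the files used, the DP library held 1997083 reads and the ES library 1847598, and the size of each whole library was not analysed. Of these, 83.0% in DP and 66.8% in ES lay within 1.5 Mb of the bait. The desert received 140982 reads in DP and 318464 in ES. These were 8.50% and 25.8% of the reads within 1.5 Mb. The mirror region received 567680 reads in DP and 253058 in ES, or 34.2% and 20.5%. Of all reads within 1.5 Mb but more than 20 kb from the bait, the side of the desert held 33.7% in DP and 59.8% in ES.

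The fragments that carried most reads show how a 4C read looks and how unlike the libraries were at single fragments. Each read begins at a fragment end, so the 26 bases that a read would show are given from both ends, 5′ to 3′ into the fragment, with GATC and any GTAC in capitals (mm9). The first 3 fragments below had the most reads in DP and the last 3 the most in ES. Each of the 12 ends occurs at a single DpnII end of the genome.
DP, chr17:51744446-51744917, left end: GATCaaaattcacactGTACactgtt
DP, chr17:51744446-51744917, right end: GATCcacaggagaggtgggcagtgat
DP, chr17:51579916-51581484, left end: GATCacctacatataactccattggt
DP, chr17:51579916-51581484, right end: GATCtggtaatgagattcaagactaa
DP, chr17:51548546-51549734, left end: GATCtgactggagacaggcgaaggaa
DP, chr17:51548546-51549734, right end: GATCaggttcttaccagaactggaac
ES, chr17:51704041-51704409, left end: GATCtatggctttcattcacccttaa
ES, chr17:51704041-51704409, right end: GATCtgatgcctctggcctctaggga
ES, chr17:51797026-51797667, left end: GATCtgactgtagaaaacctactgtg
ES, chr17:51797026-51797667, right end: GATCtttagagtcaaccatcgcgtaa
ES, chr17:51835123-51835331, left end: GATCtccctctctggcatggcctctt
ES, chr17:51835123-51835331, right end: GATCcttgaggcaaacttctcagact

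The leading DP fragment, 217 kb from the bait, had 1804 reads in DP and 19 in ES. The other DP fragments, 381 and 413 kb away, were also read in ES, with 1788 against 644 reads and 1707 against 997. The leading ES fragment, 258 kb from the bait, had 4241 reads in ES and 30 in DP, and it holds no GTAC site. The next, at 165 kb, had 3477 reads in ES and 564 in DP. The last, at 127 kb, had 3003 reads in ES and 0 in DP. These fragments were picked for their reads, so their contrast between libraries is a description. No single fragment carried the desert, since the leading one held 1.28% of its DP reads and 1.33% of its ES reads, and the 10 most read held 10.9% and 8.45%.

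The third ES fragment is short enough to print whole, and it is shown as the fragment with the most ES reads in the desert that DP did not read at all among those listed. It spans 209 bases including both GATC sites and has no GTAC site (chr17:51835123-51835331).
Whole fragment: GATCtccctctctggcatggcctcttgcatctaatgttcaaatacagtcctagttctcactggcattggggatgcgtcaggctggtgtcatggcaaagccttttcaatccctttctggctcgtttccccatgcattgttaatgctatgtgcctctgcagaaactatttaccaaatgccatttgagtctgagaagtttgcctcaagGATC

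Some fragments are hard to place by a read, because the bases of both ends also occur at other DpnII ends of the genome. One of them, chr17:51737520-51737813 at 224 kb from the bait, had 0 reads in both libraries. The 26 bases of its left end occur at 17712 DpnII ends of the genome.
Left end: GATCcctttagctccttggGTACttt
Of the desert's fragments, 88 had no unique end in this sense, and a read fell on 2 of them in DP (2.27%) and 10 in ES (11.4%). A unique end was present in 93.2% of the desert's fragments and in 84.4% of those in the mirror region. The median fragment of the desert was 298.5 bp long, against 253 bp in the mirror region, and 46.7% against 45.1% held a GTAC site.

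Detection, meaning that a fragment had at least 1 read, ran in opposite directions on the 2 sides. In the desert, 654 fragments were detected in DP (50.8%, 95% exact binomial interval 48.0 to 53.5) and 1031 in ES (80.0%, 77.8 to 82.2). In the mirror region, 990 were detected in DP (71.9%, 69.4 to 74.3) and 857 in ES (62.2%, 59.6 to 64.8). On fragments with a unique end, the desert shares were 54.3% in DP and 85.1% in ES, and the mirror shares were 84.1% and 72.6%. Over all fragments within 1.5 Mb, 39.2% were detected in DP and 50.4% in ES.

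Fragments read in ES alone were far more common in the desert than fragments read in DP alone. There were 586 fragments read in both libraries, 445 in ES only, 68 in DP only and 189 in neither. In the mirror region these counts were 790, 67, 200 and 320. Over all 7547 fragments within 1.5 Mb they were 2320, 1483, 642 and 3102. ES-only fragments were thus 2.31 times as many as DP-only ones over the whole range, and 6.54 times in the desert. Of the desert fragments that DP read, 89.6% were also read in ES, whereas 56.8% of those that ES read were also read in DP. The desert fragments read in ES only had a median of 121 reads, and those read in DP only 73.5. Reads were not corrected for PCR duplicates, so the number of ligations behind them is not known.

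**Figure D1:**
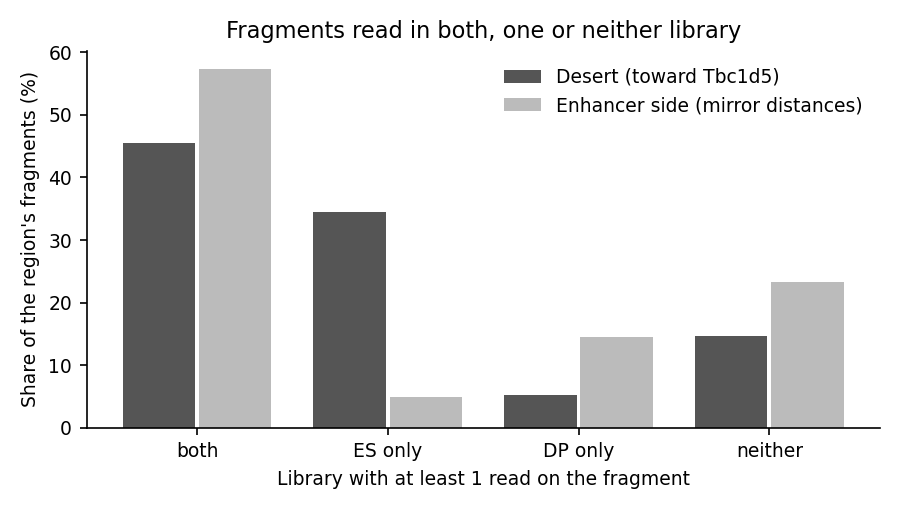
Share of fragments (%) with at least 1 read in both libraries, in ES only, in DP only or in neither, for the 1288 fragments of the desert (dark bars) and the 1377 of the enhancer side at mirror distances (light bars). ES-only fragments were 34.5% of the desert and 4.87% of the enhancer side, and DP-only fragments 5.28% and 14.5%. Over all fragments within 1.5 Mb, which are not drawn, 19.7% were ES only and 8.51% DP only.

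Where a desert fragment was read in both libraries, the comparison of its levels depended on the scaling. The median was 68 reads in DP and 173 in ES, and with both libraries scaled to the same number of reads within 1.5 Mb the median ES over DP ratio was 2.24, with ES higher in 404 of 586. After quantile normalization, which gives both libraries the same distribution of values over all fragments within 1.5 Mb, the median ratio was 1.07, with ES higher in 306 of 586. On the same scale the mean over detected fragments was 209 for DP and 346 for ES, 1.66 times as high, and the detected share in ES was 1.58 times that in DP. In the mirror region the median ratio was 0.689 with equal reads and 0.410 after quantile normalization. Over all 2320 fragments within 1.5 Mb read in both libraries, the median ratio was 1.09 with equal reads and 0.607 after quantile normalization. ES was higher in 52.1% and 38.5% of them.

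Levels below are means of the quantile normalized reads over all fragments of a region, detected or not. The mean over the desert was 106 reads per fragment for DP and 277 for ES, so that ES stood 2.61 times above DP (log2 1.39). The mean over the mirror region was 369 for DP and 206 for ES (0.560 times). Within DP the desert therefore stood at 0.288 of the mirror level (log2 -1.80), while within ES it stood at 1.34 times it (log2 0.43). DP was lower in the desert than at the same distances on the enhancer side, and ES was higher.

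**Figure D2:**
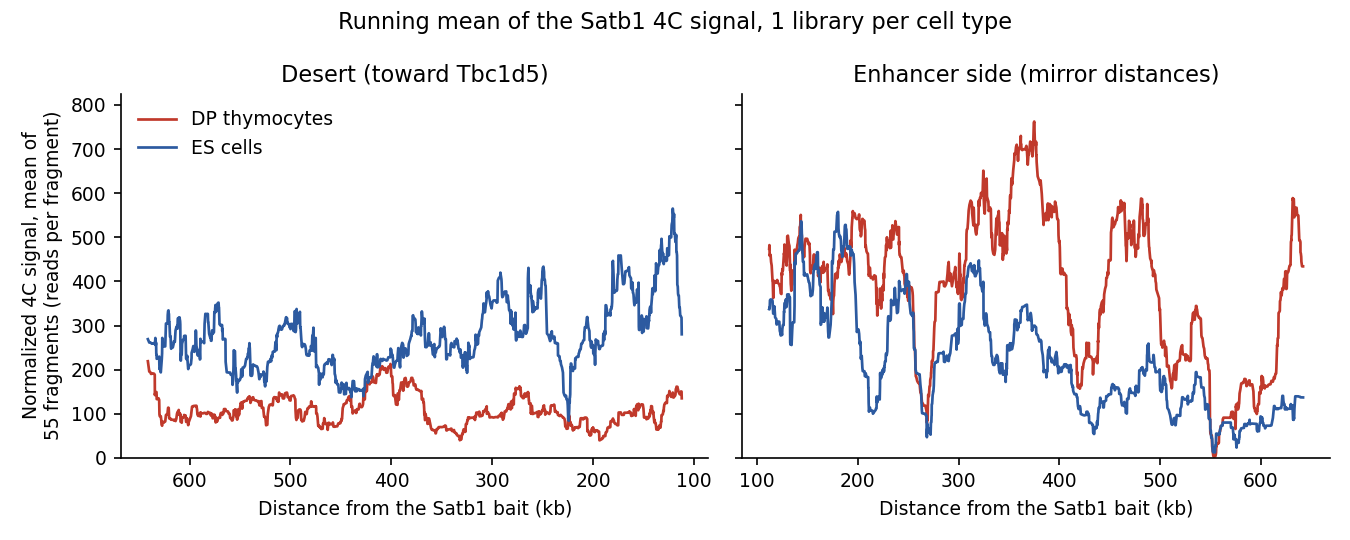
Normalized 4C signal of DP thymocytes (red) and ES cells (blue), as the mean of 55 neighbouring fragments in reads per fragment, against distance from the Satb1 bait in kb, with the desert on the left (near edge to the right) and the enhancer side on the right. In the desert ES ran above DP at 1284 of 1288 positions, and on the enhancer side at 121 of 1377. Neighbouring positions share most of their fragments, so they are not separate observations. With means of 21 fragments these counts were 1201 and 175. Over the whole range levels were compared in steps of 10 kb only, where ES was higher in 150 of the 262 steps compared.

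The profile of the desert in DP was flat in blocks of 100 kb and low against the enhancer side. The DP level of the desert's 10 kb steps ranged from 29.2 to 293 reads per fragment. The median of these steps was 102, against 86.9 over all 262 steps compared. In blocks of 100 kb from the near edge outward (the last block covers 30 kb, from 612 to 642 kb), its level in DP was 96.1, 108, 110, 123, 100 and 86.1 reads per fragment. The ES level fell from 378 in the nearest block to 295, 256, 229 and 225, and was 268 in the outermost one. The ES over DP ratio was accordingly highest beside Satb1, at 3.93, and lowest between 412 and 512 kb, at 1.86, with 3.11 in the outermost block. Over the 53 steps of 10 kb, distance correlated with the ES level (Pearson r = -0.46, Spearman rho = -0.43) and hardly with the DP level (r = 0.04, rho = 0.06). Steps are neighbours of 1 library and not independent samples, so these are descriptions.

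Against the mirror distance, DP was lower in the desert in every block, from 0.192 times between 312 and 412 kb to 0.657 times between 512 and 612 kb. ES was about level in the nearest block (1.02), higher from 212 to 312 kb (1.28), lower from 312 to 412 kb (0.921), and higher beyond, with 1.64, 2.73 and 2.42. The ES library thus exceeded its own mirror level mainly in the outer part of the desert, while its excess over DP was largest near the gene. In the mirror region, DP stood above ES by 1.21, 1.49, 2.07, 2.63, 1.85 and 3.73 times in the same blocks from the near edge outward.

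In steps of 20 kb (with a last step of 10 kb at the near edge), ES detected a larger share of fragments than DP in 27 of 27 desert steps. Over the whole range this was counted in steps of 10 kb only, where ES detected more in 168 of the 262 steps compared. The share ranged from 38.0% to 72.2% in DP with a median of 50.0%, and from 58.3% to 94.9% in ES with a median of 80.0%. ES exceeded DP in level in 26 of the 27, by 6.56 times at most, and the exception, from 402 to 422 kb, had a level of 240 in DP and 233 in ES. Set against its mirror step, the desert was lower in DP in 26 of 27 steps, with a median ratio of 0.239. In ES it was higher in 20 of 27, with a median of 1.43.

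Unique ends were spread unevenly over the mirror steps, and this touches some of these pairs. The 1 step where DP was higher in the desert lay at 542 to 562 kb, with a ratio of 1.58, and there 27 of 81 mirror fragments had a unique end and 22.2% were detected in DP. At 262 to 282 kb, where 26 of 64 mirror fragments had a unique end, 32.8% were detected in DP and 26.6% in ES. The highest ES ratio, 5.71, lay at 562 to 582 kb. There 49 of 73 mirror fragments had a unique end.

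**Figure D3:**
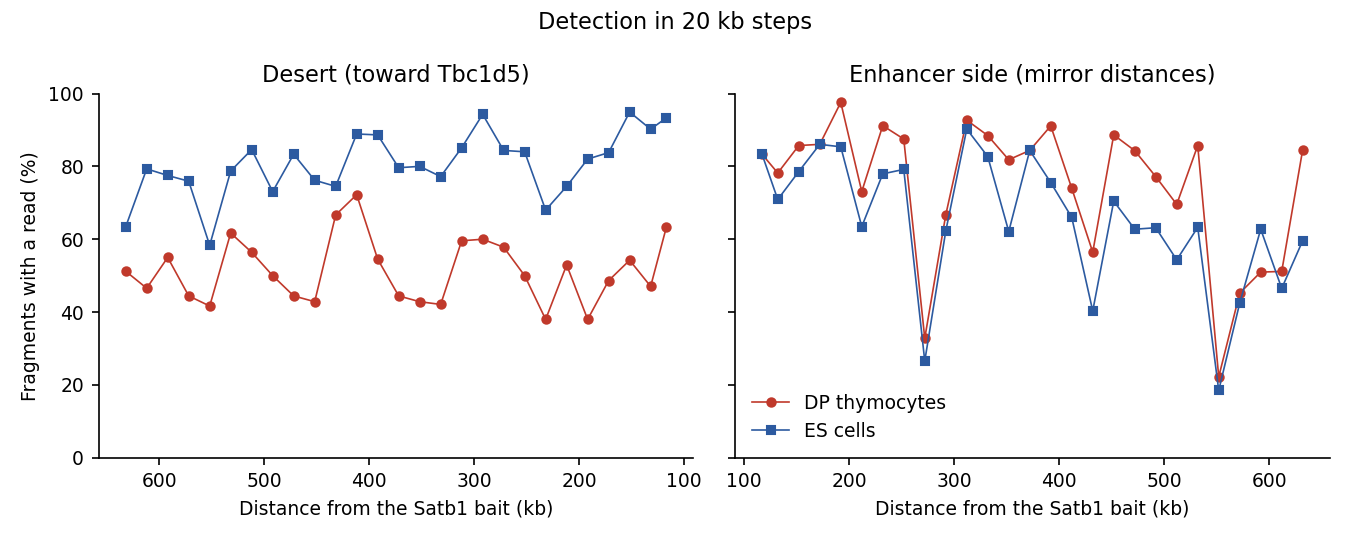
Fragments with at least 1 read (%) in steps of 20 kb against distance from the Satb1 bait in kb, in DP thymocytes (red circles) and ES cells (blue squares), for the desert (left) and the enhancer side (right). In the desert the ES points lie above the DP points in 27 of 27 steps.

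In steps of 10 kb, ES was at least 2-fold above DP in 37 of 53 desert steps (69.8%). Over the steps compared on both sides between 22 and 1492 kb from the bait, this share was 32.8%. Of the 294 steps there, 262 were compared. Most of those left out had 3 reads or fewer in DP and more in ES, so the shares over steps compared understate how often ES was higher. DP was at least 2-fold above ES in 0 of 53, against 20.6% of the steps compared. ES exceeded DP by any amount in 57.3% of the steps compared and in 51 of 53 in the desert. The mirror region had 1 step at least 2-fold higher in ES and 23 at least 2-fold higher in DP. The median ES over DP ratio was 2.72 in the desert (range 0.675 to 9.36) and 0.511 in the mirror region. All steps together had a median log2 ratio of 0.28, and 48 of the 53 desert steps lay above it. ES detected more fragments than DP in 53 of 53 desert steps, in 3 of 53 mirror steps and in 168 of all 262 steps compared.

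**Figure D4:**
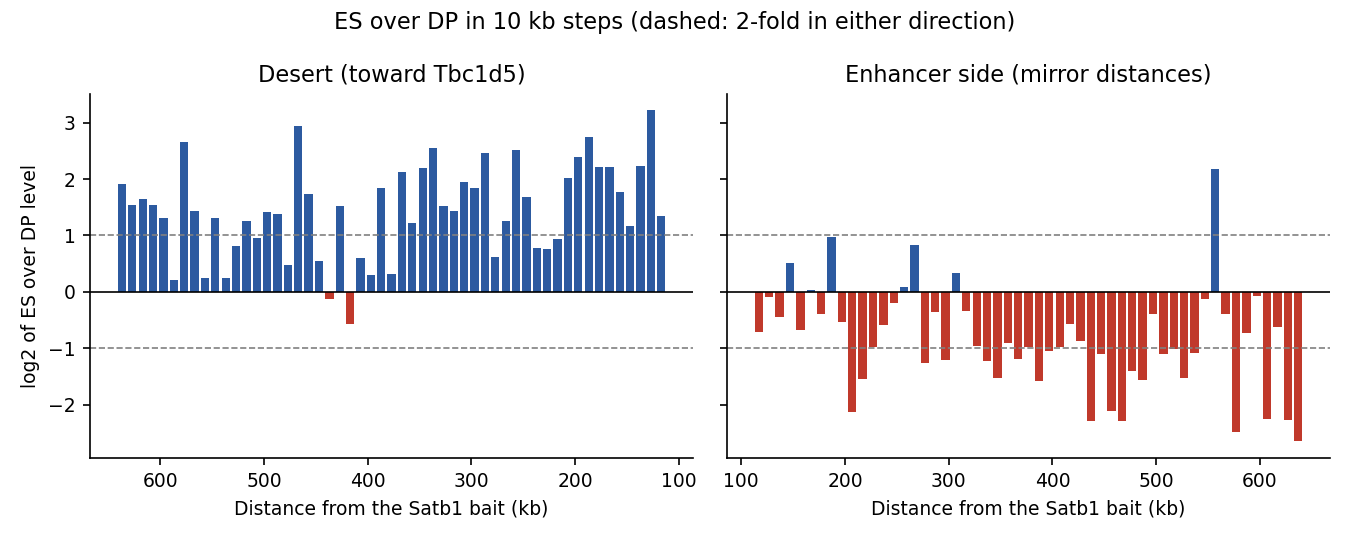
log2 of the ES over DP level in each 10 kb step against distance from the Satb1 bait in kb, for the desert (left) and the enhancer side (right). Blue bars mark ES higher, red bars DP higher, and dashed lines a 2-fold difference. In the desert 51 of 53 bars are above 0 and 37 reach 2-fold.

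The places where ES exceeded DP most were spread along the desert. The highest ratio was in the step from 122 to 132 kb, chr17:51830000-51839999, with 1270 reads in DP and 11935 in ES over 23 fragments (ratio 9.36, and 8.55 without each library's top fragment). Next came the step from 462 to 472 kb, with 833 and 6119 reads over 26 fragments and a ratio of 7.69. There 9 fragments were detected in DP and 23 in ES. A single fragment held 64.3% of the DP reads of that step, and without each library's top fragment the ratio was 11.8. The steps from 182 to 192, 572 to 582 and 332 to 342 kb followed, with ratios of 6.69, 6.30 and 5.89. In the last of them a single fragment held 62.9% of the DP reads, and without the top fragments the ratio was 9.66.

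At least 2-fold excess of ES came in runs. The longest run was 10 steps, from 112 to 212 kb, with 25030 reads in DP and 84526 in ES and a ratio of 3.93. The next was 9 steps from 282 to 372 kb, with 16161 and 53589 reads and a ratio of 3.71, and then 5 steps from 592 to 642 kb at the Tbc1d5 end, with a ratio of 2.94. Between the first 2 runs lay a run of 3 steps from 242 to 272 kb with a ratio of 3.52, and 4 steps below 2-fold, from 212 to 242 kb (1.91, 1.70 and 1.71) and from 272 to 282 kb (1.54).

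DP exceeded ES in 2 steps, both in the middle of the desert. From 412 to 422 kb, chr17:51540000-51549999, DP had 6154 reads and ES 3584 over 19 fragments, and DP stood 1.48 times above ES. Even there ES detected 18 fragments and DP 16. From 432 to 442 kb DP had 4297 reads and ES 3438, a ratio of 1.09, with 17 and 18 of 28 fragments detected. The step between them went the other way, with 1317 reads in DP and 4215 in ES. The 3 steps next in the order, from 582 to 592, 532 to 542 and 552 to 562 kb, had ES higher by 1.16, 1.18 and 1.18 times. Without each library's top fragment these ratios were 1.10, 1.17 and 0.901, so that the last turned to DP, and ES was higher in 50 of the 53 steps.

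Running means placed the tops of the profiles apart. Over 21 fragments, DP reached its top in the desert at 411 kb from the bait, with 337 reads per fragment where ES had 299. ES reached its top at 125 kb, with 649 where DP had 138. Over 55 fragments and with windows wholly inside the desert, the DP top was at 401 kb (213, with 239 in ES) and the ES top at 121 kb (565, with 148 in DP). A higher DP value of 219 stood at the far edge itself, in a window that reached into Tbc1d5. The lowest ES mean over 55 fragments, 84.0 reads per fragment, was at 224 kb, where DP had 87.2. That window is centred on the repeated fragment printed above, and in its 10 kb step, from 222 to 232 kb, 18 of 28 fragments had a unique end.

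**Figure D5:**
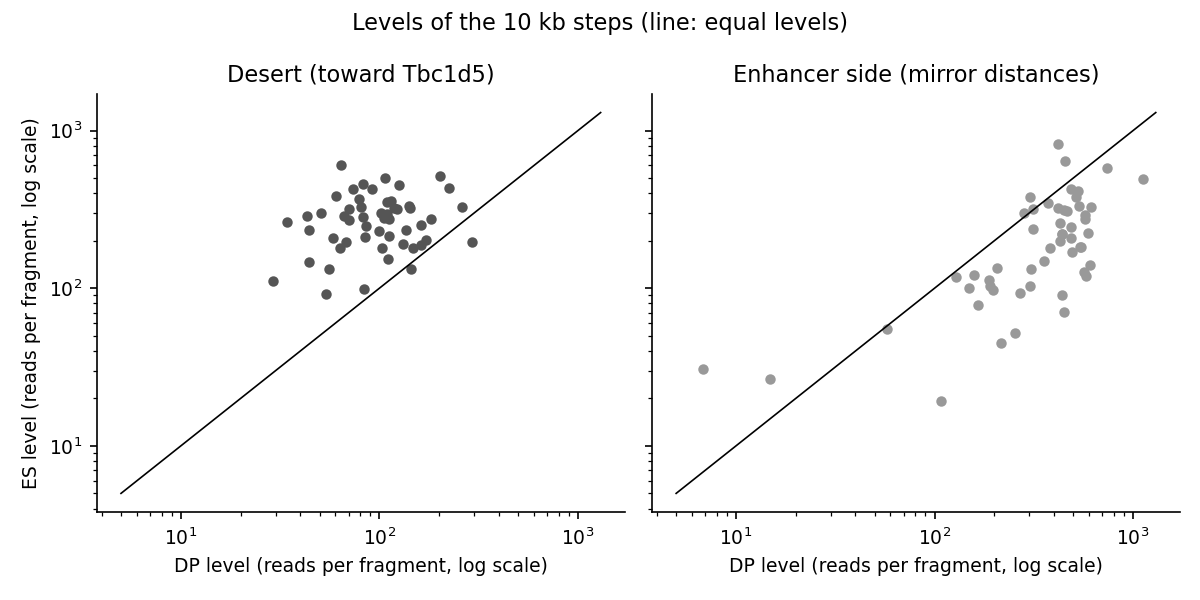
Level of each 10 kb step in DP (x) against ES (y), in normalized reads per fragment on log axes, for the 53 steps of the desert (left) and the 53 of the enhancer side (right), with the line of equal levels. In the desert 51 of 53 points lie above the line and the levels of both libraries are hardly correlated (r = 0.12). On the enhancer side 7 lie above it.

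The levels of both libraries were only weakly related over the steps of the desert. Over the 53 desert steps, DP and ES had r = 0.12 and rho = 0.14, against 0.55 and 0.61 over the mirror steps. The number of fragments with a unique end in a step was hardly correlated with either level in the desert (r = 0.05 in DP and 0.06 in ES), and in the mirror region r was 0.27 in DP and 0.04 in ES.

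At the far edge the excess of ES was larger inside the desert than outside it, while outside the near edge the ratio varied between steps. In Tbc1d5, beyond the far edge, the level was 118 in DP and 125 in ES, which gave a ratio of 1.05. In the 20 kb just outside that edge DP stood at 386 and ES at 273, and in the 20 kb just inside at 66.5 and 207, so the ratio went from 0.707 to 3.11. The outer 20 kb hold 34 fragments, and the 2 that lie between the start of Tbc1d5 and the desert alone had 1849 reads in DP and 220 in ES. Over 100 kb on each side of the edge the ratio was 0.944 outside and 2.69 inside. At the near edge it went from 3.88 in the last 20 kb of the desert to 1.82 in the next 20 kb. Unique ends touch this drop, since 10 of 29 fragments had one in the step from 102 to 112 kb, where the ratio was 1.04. The following 10 kb steps toward the bait, down to 52 kb, had ratios of 2.83, 4.67 (over 8 fragments), 2.00, 1.73 and 0.940. Between the desert and the end of Satb1 the ratio was 2.24 over 56 fragments, and from there through Satb1 to 20 kb from the bait it was 1.26. An excess of ES was also found farther out on this side. Beyond Tbc1d5, from 1102 to 1492 kb, ES exceeded DP in most 10 kb steps, with ratios from 0.649 to 53.5 in those compared. Many of those steps had few DP reads.

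Fragment type made no difference to the direction. The ES over DP ratio of levels was 2.93 on the 602 fragments with a GTAC site, whose mean was 140 raw reads in DP and 339 in ES, and the 686 without one had 83.0 and 167. With the fragments split by length into 4 classes of like size, the ratio was 1.97 in the shortest class (5 to 126 bp) and 2.82, 2.67 and 2.79 in the next 3. Detection rose with length in both libraries, from 43.5% in the shortest to 55.9% in the longest class in DP and from 69.8% to 87.0% in ES. Unique ends rose likewise, from 88.9% to 97.5%.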

How the data were processed

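Reads were sorted by bait sequence with up to 2 mismatches and the rest was aligned to mm9 by the authors, who deposited read counts per DpnII fragment of chromosome 17 (processing notes of the submitters list bcl2fastq and Bowtie 1.0.0). The counts are not normalized and not corrected for PCR duplicates, so reads are not independent ligations. The user guide leaves out fragments above 2% of all reads. All 229546 midpoints matched a DpnII fragment of the mm9 sequence. Both Satb1 libraries were quantile normalized within 1.5 Mb of the bait, a range chosen here (Python version 3.11.15, checked against limma version 3.58.1 and on simulated data). An end was called unique if its 26 bases occur once among the 13180145 DpnII ends of the genome. Steps of 10 kb were laid out by distance from the bait, and those with 3 reads or fewer in either library were not compared. Named were Satb1, the bounding genes, genes in either region, the 5 steps with the highest ratio each way, the longest runs, the tops of running means over 21 and 55 fragments and the 3 most read fragments per library. Alternatives covered scaling, capping at the 99th percentile, fragment type, fold limit and step. The region and these lists were chosen with earlier results of these data known. The Sox2 and Ikzf1 libraries were not used here.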

Additional observations from a re-analysis of the deposited data

Results flagged for a closer look

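The desert and the enhancer side stood in opposite order in the 2 cell types. The log2 ratio of the desert to the mirror level was -1.80 in DP and 0.43 in ES, a difference of 2.22 on the log2 scale. The detected share of the desert minus that of the enhancer side was -21.1 percentage points in DP and 17.8 in ES, a difference of 38.9 points. Both were picked out because the direction was opposite in the 2 libraries, and the difference was not tested, since there is 1 library per cell type.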

How the results depend on the processing

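No value below reversed, while 1 named step (552 to 562 kb) turned to DP without the top fragments. The log2 ES over DP level of the desert (1.39) was 1.60 with equal reads within 1.5 Mb, 1.29 with equal reads on the chromosome, 1.48 with quantile normalization within 1 Mb, 1.55 on fragments with a GTAC site, 1.41 without the top fragment of each step and 1.36 with fragments within 20 kb of the bait left out before normalization. The log2 ratio of the desert to the mirror level in DP (-1.80) was -1.91 with equal reads on either base, -1.84 with the 1 Mb range, -1.97 on GTAC fragments, -1.94 on fragments with a unique end, -1.94 without the top fragments and -1.81 with the bait surroundings left out. In ES (0.43) it was 0.27 on GTAC fragments, 0.28 on unique fragments and 0.45 without the top fragments. Of the 53 steps, 37 were at least 2-fold higher in ES, and 37 to 42 were under the alternatives of scaling, capping and fragment type. With a limit of 3-fold 22 were, and 17 of 27 steps of 20 kb passed 2-fold. With steps moved by 5 kb, 1 step passed 2-fold in DP, against 0. The detected share at 10 or more reads was 41.4% in DP and 70.3% in ES, and on unique fragments 54.3% and 85.1%. Every alternative not named here stayed within the counting interval of its value, or within 1.5 times for a count.

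The scaling also moved all steps. Their median log2 ES over DP ratio was 0.28, and it was 0.58 with equal reads within 1.5 Mb and 0.10 on GTAC fragments. The desert median lay 1.14 to 1.46 above it under all settings of scaling and fragments tried. With equal reads within 1.5 Mb, 42.4% of all steps compared passed 2-fold in ES and 14.1% in DP. No paired analysis was possible because each cell type has 1 library. Replicate error, ligation counts behind the reads and strain differences were not measured.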
